A study of Mus musculus with 4 samples.

Results

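The Schwann cell and myelin genes described here are Mbp, Pmp22, Prx, Sox10, S100b, Mag, Cnp and Egr2. They were followed in molar teeth through every probe set that the platform annotation assigns to exactly 1 of these symbols. The rule found 20 probe sets for 7 of the 8 genes, out of 45101 probe sets on the array. No probe set naming Prx (periaxin, a scaffold protein of peripheral myelin) is in the tables used here, so Prx is not analysed here. The tissue was molar teeth of Swiss-Webster mice, both sexes, 60 pups aged 1 to 10 days, untreated. Teeth were pulled by hand and combined into 1 pool before RNA extraction, and the biotin-labelled RNA was hybridised to 4 Affymetrix Mouse Genome 430 2.0 arrays. The 4 arrays form 1 group with no second condition, and they repeat 1 pool, so each SD given is a technical one and p-values would measure only the spread between arrays, not that between animals or ages. Nerve was not separated from the other cells of the tooth, and in such bulk RNA fewer cells of a type and less RNA per cell cannot be told apart.

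Schwann cells are the glia of peripheral nerve. Those around large axons wrap them in myelin, a stack of membrane held together by proteins such as peripheral myelin protein PMP22 and myelin basic protein MBP, while others ensheathe small axons without making myelin. The factor SOX10 acts throughout the lineage, and EGR2 (also called Krox20) is needed with it to switch on the myelin genes. Sensory nerves enter the tooth pulp and the tissue around the root, and Schwann cells accompany them. In mouse teeth, cells of the Schwann lineage are also known to give rise to some pulp cells and odontoblasts. Most of the 8 genes are used elsewhere too. Pmp22 is active in fibroblasts and epithelia, Cnp at low level in many cells, Sox10 in melanocytes and some glands, S100b in cartilage and fat, and Egr2 in bone and immune cells.

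The windows upstream of transcription starts are shown for 3 of these genes, because Pmp22 was the member with the clearest signal and is transcribed from several starts, and because Cnp and Mag held the only matches to the motif searched. The sequences are those of RefSeq on GRCm38.p6, from which windows of 6 of the 8 genes were used, 15 windows in all. No window of Mbp or Sox10 is among the 15. Each line below holds the 250 bases before a start, read 5′ to 3′ along the gene's strand. Capitals mark ACAAAG or its reverse complement CTTTGT, the core letters that SOX factors bind. The first lies at chr11:63128732-63128981 on the plus strand, the second at chr11:63131207-63131456 on the plus strand, the third at chr11:100574689-100574938 on the plus strand and the last at chr7:30914923-30915172 on the minus strand.
Pmp22, first start: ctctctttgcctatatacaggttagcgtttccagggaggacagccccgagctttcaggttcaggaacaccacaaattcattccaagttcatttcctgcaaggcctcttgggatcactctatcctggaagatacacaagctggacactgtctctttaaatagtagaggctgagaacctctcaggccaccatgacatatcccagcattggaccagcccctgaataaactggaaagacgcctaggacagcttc
Pmp22, second start: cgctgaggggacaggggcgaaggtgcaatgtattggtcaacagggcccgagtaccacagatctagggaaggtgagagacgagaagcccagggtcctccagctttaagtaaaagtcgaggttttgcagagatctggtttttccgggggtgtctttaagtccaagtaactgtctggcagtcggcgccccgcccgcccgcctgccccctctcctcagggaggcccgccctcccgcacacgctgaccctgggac
Cnp: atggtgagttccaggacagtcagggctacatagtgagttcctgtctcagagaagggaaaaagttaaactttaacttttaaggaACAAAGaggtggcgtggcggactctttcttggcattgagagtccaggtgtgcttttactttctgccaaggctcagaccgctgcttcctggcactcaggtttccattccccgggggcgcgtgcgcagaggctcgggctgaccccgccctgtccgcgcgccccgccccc
Mag, first start: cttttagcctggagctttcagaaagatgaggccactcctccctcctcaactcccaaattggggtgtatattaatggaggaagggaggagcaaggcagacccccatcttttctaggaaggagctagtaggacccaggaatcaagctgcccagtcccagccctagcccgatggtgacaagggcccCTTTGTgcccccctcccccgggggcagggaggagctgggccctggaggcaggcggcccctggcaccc

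RefSeq lists 4 Pmp22 starts in this table. In rodents the upstream promoter of Pmp22 is known for its use in myelinating Schwann cells and a downstream one for its use in many tissues. The GC content was 48.8% in the first Pmp22 window, 61.2% in the second, 64.8% in the third and 73.6% in the fourth. Which of these windows belongs to which promoter was not worked out here. The array has 1 probe set for Pmp22 and thus 1 signal for the gene, so these data do not divide the Pmp22 signal between its starts. The 6-base SOX core was found in 3 of the 15 windows, which were 1 for Cnp and 2 overlapping windows of Mag that share 1 match, compared with 16.5% of the 32851 windows of all genes. The motif GCGNGGGCG, bound by EGR factors, was searched on both strands and was in 0 of the 15 windows, and in 4.7% of all windows. A match is a stretch of letters and not a measured binding site.

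Transcripts of Pmp22, Mbp, Cnp and Sox10 were above background in the tooth pool, and those of Mag, S100b and Egr2 were not. Signals are MAS5 values on a linear scale, and a background threshold was taken from 86 probe sets for olfactory, vomeronasal and taste receptors, which teeth are not expected to express, at the 95th percentile of their signals. This threshold was 996, 1097, 1295 and 1266 signal units on arrays 1 to 4. Above background means over the threshold on every one of the 4 arrays, for a gene through at least 1 probe set. By this rule 4 of the 7 genes passed (57.1%), against 9392 of 18194 genes in all (51.6%), so the share among the 7 is close to that of all genes and is no result about the members. At the level of probe sets, 8 of 20 passed, against 42.5% of the 34958 probe sets that name 1 gene. Most of the 20 carry a suffix (_a_at, _s_at or _x_at) that marks sequence shared between transcripts. Of these 15 probe sets 7 passed, against 59.0% of all such probe sets, and of the 5 without a suffix 1 passed, against 37.6%. A one-sided limma test of the signal over the threshold, adjusted over all 18194 genes, called the same 4 of the 7, and 51.1% of all genes. The alternative rules used further on called other shares of all genes: 48.2% with the 99th percentile as threshold, 65.3% with the 75th, 45.7% with a background of testis and retina genes, 55.9% with 3 of 4 arrays sufficing, 46.6% from probe sets without a suffix and 39.3% where a gene's median probe set decides. Leaving out array 1, 2, 3 or 4 gave 51.8%, 52.0%, 52.8% and 54.1%, and quantile normalisation 51.6%.

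**Figure D1:**
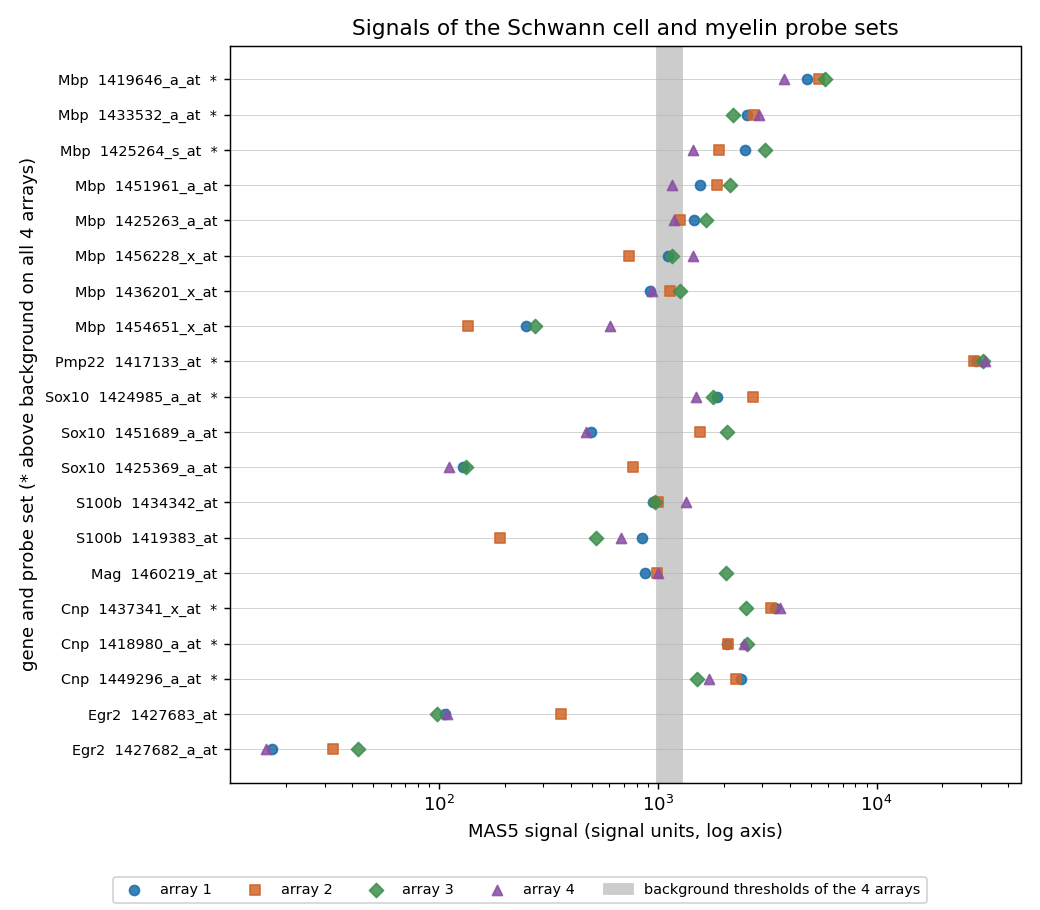
MAS5 signal of the 20 probe sets on each of the 4 arrays, on a log axis, grouped by gene; the grey band spans the 4 thresholds (996 to 1295) and an asterisk marks the 8 probe sets above background on all 4 arrays. Pmp22 lies between 27913 and 31162, the 3 Cnp probe sets all lie right of the band, and the 8 Mbp probe sets run from 136 to 5795.

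Of the proteins of compact myelin, Pmp22 gave the steadiest signal among the members. PMP22 is a membrane protein of compact peripheral myelin whose gene dosage causes inherited neuropathies in humans. Its probe set had 28425, 27913, 30596 and 31162 signal units on arrays 1 to 4, or 29524 ± 1595 (SD, n = 4). Every array was far over its threshold, by 25.5-fold on average. The SD of its log2 signal was 0.08, the smallest of the 20 probe sets and below the median of 0.17 among probe sets above background. Pmp22 stayed above background under every alternative tried. Because the gene is active in many connective tissue and epithelial cells, its signal is not a measure of Schwann cells alone.

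Mbp, which encodes the basic protein that holds the inner faces of the myelin membrane together, was above background through 3 of its 8 probe sets. RefSeq lists 8 curated Mbp transcripts, and all 8 probe sets carry a shared-sequence suffix. The probe set 1419646_a_at had 4814, 5435, 5795 and 3784 signal units on arrays 1 to 4, or 4957 ± 881 (SD, n = 4). All 4 arrays were at least 2.99-fold over their threshold. 1433532_a_at had 2548, 2740, 2213 and 2907 signal units, and 1425264_s_at had 2510, 1907, 3074 and 1443. These were above background as well, the last by 1.14-fold on array 4, the smallest margin of any member that passed.

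The other 5 Mbp probe sets were not above background. 1451961_a_at had 1552, 1869, 2146 and 1158 signal units and 1425263_a_at had 1467, 1267, 1654 and 1186, so both exceeded the threshold on arrays 1 to 3 and missed it on array 4. 1425263_a_at was the nearest miss of all 20, at 0.937 of the threshold on that array. Without array 4 both passed, which made the count of member probe sets 10 of 20 instead of 8, while the share of all probe sets naming 1 gene was 45.0% without array 4 and 42.5% with it. Of the remaining Mbp probe sets, 1456228_x_at (1113 ± 292) passed on 2 arrays, 1436201_x_at (1066 ± 162) on 1 and 1454651_x_at (317 ± 203) on 0. The annotation gives all 8 to the same gene, and here they disagreed on whether it was above background. The Mbp transcripts that each probe set reads were not worked out here.

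Genes with more probe sets passed more often, and whether more chances to pass or higher expression goes with this was not tested. Among genes with 8 or more probe sets 94.2% were above background, against 73.4% with 3, 60.1% with 2 and 35.2% with 1. Mbp has 8 probe sets, Cnp and Sox10 have 3 each, S100b and Egr2 have 2 each, and Pmp22 and Mag have 1 each. Of these, Pmp22 passed in the class where passing was least common, and S100b and Egr2 did not pass in a class where more than 60% of genes did.

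**Figure D2:**
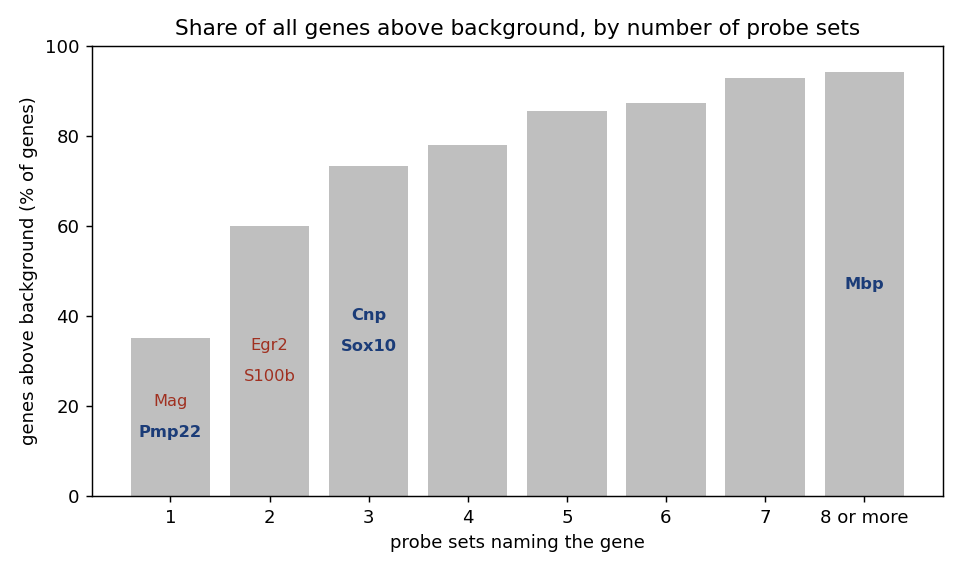
Share of all genes above background (% of genes, bars from 0) by the number of probe sets that name the gene, with the 7 measured genes written in their class, bold blue for genes above background and red for those not. The share climbs from 35.2% for genes with 1 probe set to 94.2% for genes with 8 or more.

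Of the genes for proteins of non-compact myelin, Cnp passed and Mag did not. CNP is an enzyme and cytoskeletal partner of the cytoplasmic channels in myelin sheaths, and all 3 of its probe sets were above background. 1437341_x_at had 3422, 3292, 2529 and 3633 signal units on arrays 1 to 4, or 3219 ± 481 (SD, n = 4). 1418980_a_at had 2062, 2096, 2568 and 2486, and 1449296_a_at had 2387, 2272, 1506 and 1720. All 12 values exceeded their thresholds, by 2.76-fold, 1.98-fold and 1.67-fold on average. The 3 Cnp probe sets did not rank the arrays alike. Array 3 was the lowest for 1437341_x_at and for 1449296_a_at, and the highest for 1418980_a_at.

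Mag encodes a sialic acid-binding receptor on the innermost myelin wrap, where sheath and axon meet. Its probe set had 870, 990, 2058 and 997 signal units on arrays 1 to 4, or 1229 ± 556 (SD, n = 4). Array 3 stood at 1.59-fold of its threshold, while the other 3 lay at 0.787 to 0.903 of theirs. The mean log2 ratio to the threshold was -0.0048 ± 0.46 (SD, n = 4), a difference from the threshold smaller than the spread between arrays. With the threshold lowered to the 75th percentile Mag passed. A transcript not above background here may still be present at a level these arrays do not resolve.

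Among the regulators, Sox10 was above background by 1 probe set of 3 and Egr2 by none of 2. For SOX10, the lineage factor, 1424985_a_at had 1864, 2726, 1787 and 1493 signal units on arrays 1 to 4, or 1968 ± 530 (SD, n = 4). It exceeded its threshold by 1.18-fold on array 4 and by 2.48-fold on array 2. The call was lost with the 99th percentile as threshold, and also by the gene's median probe set. 1451689_a_at had 494, 1554, 2077 and 471 signal units, above the threshold on arrays 2 and 3 and at 0.496 and 0.372 of it on arrays 1 and 4. 1425369_a_at had 129, 768, 133 and 111, under the threshold on every array. Array 4 was the lowest for each of the 3 Sox10 probe sets, while the highest was array 2 for a pair of them and array 3 for 1451689_a_at.

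Egr2, the zinc finger factor of myelination, gave the lowest signals of the 7 genes relative to threshold. 1427683_at had 106, 361, 98.2 and 109 signal units on arrays 1 to 4, all below their thresholds, with array 2 at 0.329 of its threshold and the others at 0.0758 to 0.107. 1427682_a_at had 17.3, 32.7, 42.5 and 16.2 signal units, the dimmest of the 20 probe sets on every array. Egr2 was below background under every alternative tried, the lowest threshold included.

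S100b encodes a calcium-binding protein long used to stain Schwann cells. 1434342_at had 952, 1000.2, 965 and 1340 signal units on arrays 1 to 4, or 1064 ± 185 (SD, n = 4). It stood at 0.957, 0.912 and 0.746 of the threshold on arrays 1 to 3, and at 1.06-fold of it on array 4. 1419383_at had 843, 190, 520 and 678 signal units and was below the threshold on all 4. S100b passed with the 75th percentile as threshold, where 65.3% of all genes did, and under no other alternative.

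The 12 probe sets not above background were less repeatable than the 8 above it. The SD of log2 signal had a median of 0.63 and a highest value of 1.32 among the 12, and a median of 0.25 and a highest value of 0.47 among the 8. Over all probe sets naming 1 gene the medians were 0.64 and 0.17, so the median spread of the dim members was close to that of other dim probe sets, and that of the members above background was larger than that of others. No array was uniformly high or low for the members. Array 3 was the highest for 9 of the 20 probe sets and array 4 the lowest for 8, while array 4 was also the highest for 6. Within Mbp, array 4 was the lowest for 4 probe sets and the highest for 3. All 4 arrays carried the same pool, and the cause of these differences was not tested.

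**Figure D3:**
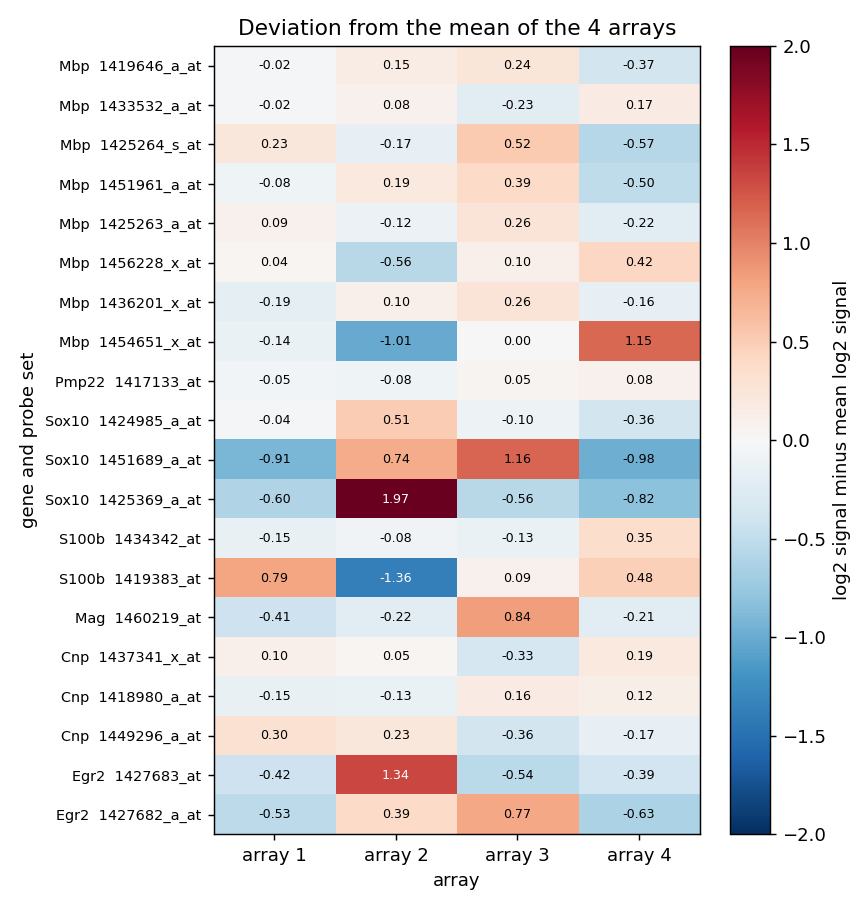
Log2 signal of each of the 20 probe sets on each array minus its mean over the 4 arrays, from blue (below the mean) to red (above it). Array 2 stands 1.97 above the mean for a Sox10 probe set and 1.34 above it for an Egr2 probe set, array 4 runs from -0.98 to 1.15, and Pmp22 stays within 0.08 of its mean.

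Other genes of peripheral myelin were likewise only partly above background. Of 15 listed myelin proteins and lipid enzymes of Schwann cells, 12 had a probe set of their own here, and 5 of those were above background (41.7%, with 51.6% of all genes). Their median log2 ratio to the threshold was -0.27, that of the 7 members 0.73 and that of all genes 0.51. Those above background with the highest signals were Cd9, a tetraspanin found in many cell types, at 19855 ± 2857 signal units, Drp2, a partner of periaxin in the Schwann cell membrane, at 5565 ± 206, and Cadm4, an adhesion protein of the inner Schwann cell surface, at 3291 ± 122 (SD, n = 4 each). Cd9 and Cadm4 have 1 probe set each, while Drp2 has 3, of which the brightest is given. Where a gene's median probe set decides, 2 of the 12 passed, with 39.3% of all genes. These were Cd9 and Cadm4, so the Drp2 call was lost by that rule. Cldn19, a claudin of Schwann cell tight junctions, had 345 ± 230, and Gal3st1, which sulphates the myelin lipid galactocerebroside, had 770 ± 195. Fa2h, which makes hydroxylated myelin fatty acids, had 1301 ± 566 and passed on 2 arrays. The other 3 are not analysed here.

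Of 20 further genes of the Schwann lineage, 10 were above background (50%, with 51.6% of all genes), with a median log2 ratio of 0.08. Nab1 and Nab2, corepressors that bind EGR factors, had 21453 ± 1129 and 4615 ± 406 signal units, and the neural adhesion gene Ncam1 had 6840 ± 923. Nab1 and Nab2 thus stood above background while Egr2 did not. Of the 10 not above background, the first 3 by alphabet were Art3, Cdh19 and Dhh, known from Schwann cells or their precursors, which had 563 ± 96.7, 374 ± 147 and 216 ± 85.1 and passed on 0 arrays. Other genes known from Schwann cells or their precursors were above background, and 5 are named here after their values were seen. These were Ngfr at 4171 ± 431, L1cam at 3680 ± 573, Erbb3, a neuregulin receptor, at 2788 ± 386, Fabp7 at 2680 ± 340 and Adgrg6 at 1689 ± 136. Each value is that of the gene's brightest probe set, of 3 for Ngfr and of 2 each for L1cam, Erbb3 and Adgrg6. Where a gene's median probe set decides, 5 of the 20 lineage genes passed, with 39.3% of all genes. Which cells of the tooth gave these signals was not tested. The rest of the 10 not above background were Foxd3, Gfap, Lgi4, Nrg1, Pou3f1, Pou3f2 and Scn7a.

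Sox10, S100b, Mbp and Cnp are shared with other glia and pigment cells, so markers of those cells are given beside them. Of 12 oligodendrocyte genes 0 were above background (0%, with 51.6% of all genes), and 0 of their 48 single-array values exceeded a threshold. The limma test uses the same signals and thresholds, so with every value under its threshold it could call none of the 12 and adds no separate evidence. Which cells gave the Mbp and Cnp signals was not tested. Cldn11, a claudin of central myelin, Ermn, a cytoskeletal protein of oligodendrocytes, and Gpr17, a receptor of their progenitors, had 351 ± 203, 322 ± 171 and 73.2 ± 41.9 signal units. Of 10 melanocyte genes 4 were above background (40%, with 51.6% of all genes), with Kit, a receptor also found on mast cells, at 8964 ± 1641, the transporter gene Slc45a2 at 2391 ± 478 and Mitf, a factor active in other cells too, at 2253 ± 315. Gpnmb, Mlana and Oca2, whose proteins lie in melanosomes, had 1029 ± 159, 348 ± 223 and 1075 ± 243 and were not above background. The summed signal of the 10 melanocyte genes ran from 16858 to 20158 over the arrays, and their part in the Sox10 signal was not tested.

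Of 16 measured genes of axons and sensory neurons, 5 were above background (31.2%, with 51.6% of all genes). The median log2 ratio of the 16 was -1.28, that of all genes being 0.51. The list mixes axon genes with other genes of sensory neurons, and the amount of axon in the pool was not tested. Stmn2, a microtubule regulator of growing axons, had 5174 ± 508 signal units, the neuronal tubulin gene Tubb3 had 3250 ± 707 and Tac1, the precursor of substance P, had 2839 ± 764. Elavl4, a neuronal RNA-binding protein, Isl1, a homeobox factor of sensory neurons, and Nefh, the heavy neurofilament chain, had 583 ± 114, 191 ± 131 and 421 ± 98.7 and passed on 0 arrays. All 10 tooth markers were above background, with a median log2 ratio of 6.75. Amelx, Col1a2 and Col1a1 had 198666 ± 42644, 195252 ± 30587 and 179786 ± 33243 signal units. An enamel gene and collagen genes thus gave the highest signals among these markers.

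**Figure D4:**
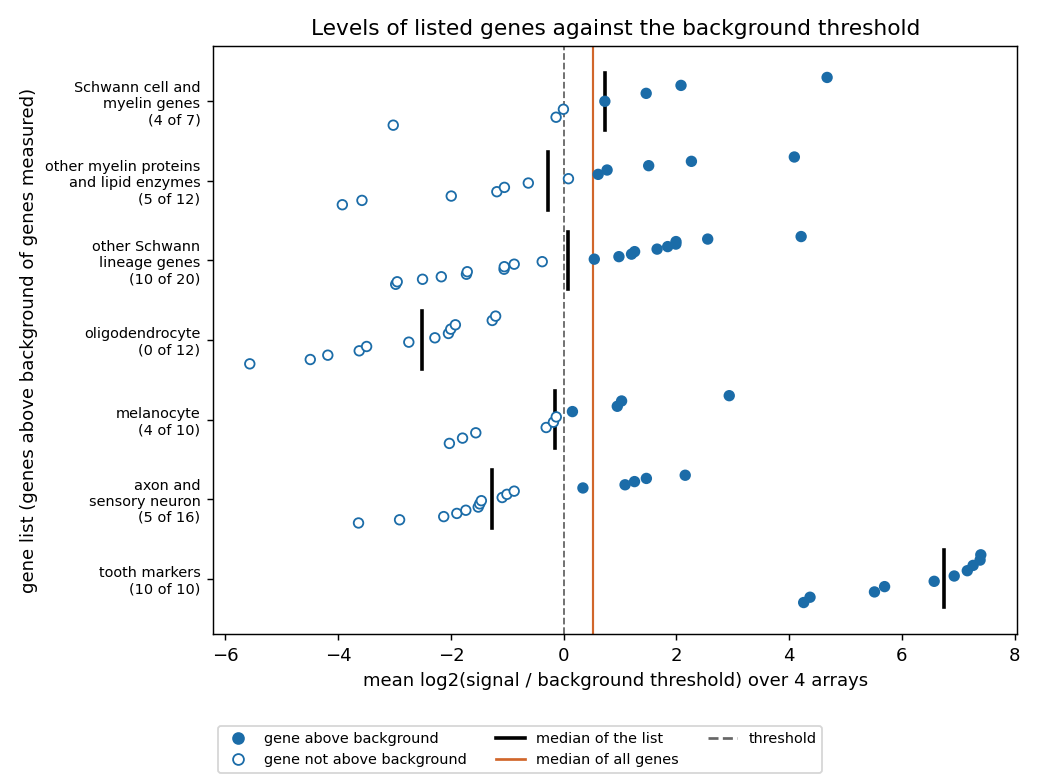
Mean log2 ratio of signal to background threshold over the 4 arrays for each gene of the 7 lists, filled where the gene was above background, with the median of each list (black bar), the median of all genes (orange line, 0.51) and the threshold (dashed line, 0). The 7 members run from -3.02 (Egr2) to 4.67 (Pmp22) around a median of 0.73, all 12 oligodendrocyte genes lie left of the threshold and all 10 tooth markers right of it.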

How the data were processed

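RNA of 1 pool of molar teeth was read on 4 arrays, grouped by the sample titles. The authors deposited 1 signal intensity per probe set and array, made with MAS5 per the submitters' processing notes. The sources used here name neither its version nor its settings. The mean without the lowest and highest 2% of signals was 2500 on each array, so the arrays share a scaling target. Depth does not apply to arrays, and their number limits the precision. Names came from the platform annotation, which gives 34958 probe sets 1 gene symbol, 932 several (not used) and 9211 none here. Of the 34958, 34754 matched RefSeq (GRCm38.p6) by gene ID, with 0 symbols changed.

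The probe set with the highest mean log2 signal stood for a gene. No group comparison exists, so genes were called against background, with limma 3.58.1 (mean-variance trend, Benjamini-Hochberg, 0.05) as an alternative. That alternative, and the call rule, were also run on simulated data, and the call rates found there are not given here. Other alternatives were the 99th and 75th percentile, a background of testis and retina genes, 3 of 4 arrays, quantile normalisation, probe sets without shared-sequence suffixes, the median probe set and leaving out each array. Members and lists were chosen with earlier results of these data known, and the motifs after the windows were seen. The text names all members and, of each other list, the 3 brightest genes above background and up to 3 others in alphabetical order. Outside this rule, Ngfr, L1cam, Erbb3, Fabp7 and Adgrg6 were added after their values were seen. Every other Schwann lineage gene not above background was named as well. No genome build is named for the arrays.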

Additional observations from a re-analysis of the deposited data

Results flagged for a closer look

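A gap test for 1 array lying apart from the other 3 was run on 57 sets of 4 log2 values and picked out 6, where chance gives about 1 in 20 (2.85 of 57). Of the 6, 4 were member probe sets, out of 20, where the same rate gives 1. The share flagged over all probe sets was not worked out, so the 4 are no result about the members. Array 2 was high for Sox10 1425369_a_at (9.59, others 6.79 to 7.06), for Egr2 1427683_at (8.50, others 6.62 to 6.76) and for Fa2h (11.07, others 9.90 to 10.09). Array 3 was high for Mag (11.01, others 9.76 to 9.96). Array 4 was high for S100b 1434342_at (10.39, others 9.90 to 9.97) and low for Stmn2 (12.11, others 12.39 to 12.42). The 4 member probe sets were not above background, and 2 of them, Mag and S100b 1434342_at, exceeded the threshold on the array that lay apart and on no other. All arrays carry the same pool, and the cause was not tested.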

How the results depend on the processing

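The 4 genes above background were the same 4 with a testis and retina background, 3 of 4 arrays, limma, quantile normalisation and without each array in turn (4 to 4). With the 99th percentile, Sox10 was not above background (mean log2 ratio 0.47), nor was it by the median probe set (-0.37), which left Mbp, Pmp22 and Cnp. With the 75th percentile, Mag (1.21) and S100b (1.08) passed as well, 14 of 20 member probe sets did (57.5% of all probe sets naming 1 gene), and 7 of 10 melanocyte genes. Without shared-sequence suffixes 4 genes and 5 probe sets remain to test, of which 1 and 1 passed (Pmp22), because every Mbp, Cnp and Sox10 probe set carries such a suffix. Member probe sets above background numbered 8 to 10 when 1 array was left out, and the shares of all probe sets naming 1 gene without array 1, 2, 3 or 4 were 42.7%, 42.9%, 43.7% and 45.0%. Other myelin genes numbered 3 of 12 with the testis and retina background and 2 of 12 by the median probe set, and other Schwann lineage genes 5 of 20 by the median probe set. No paired analysis was possible because all 4 arrays form 1 group. Dim signals limit the calls for Mag, S100b and Sox10.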
